A study of Mus musculus with 4 samples.

Results

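Olfactory receptor genes made up 1106 of the 20380 genes that the authors' deposited table lists for a pooled CRISPR-Cas9 knockout screen. They were taken as all entries whose symbol is Olfr followed by a number. This rule used no measured value, but it was set with earlier results of these data known. These genes carried 6394 guides, with 6 guides for 890 genes, 5 for 197, 4 for 16, 2 for 2 and 1 for 1 gene. The screen compared 2 libraries of sorted MERVL-positive cells with 2 libraries of total cells. All cells were of the established mouse embryonic stem cell line E14 with a MERVL-tdTomato genotype, grown in serum and leukemia inhibitory factor and carrying a lentiviral library of 130209 guides against 20611 genes. MERVL is an endogenous retrovirus whose activity marks a rare state resembling the 2-cell embryo, and the tdTomato protein reports it. Cells of both groups had been exposed to the lentivirus for 24 h with polybrene at 4 ug/mL and to puromycin at 2 ug/mL for 48 h, and no further treatment is labelled. About 500000 positive cells were sorted at day 5, which comes to 3.84 cells per library guide and 23.0 for a gene with 6 guides. The titles call the libraries sequencing repeats of each population, so separate cultures are not named.

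Olfactory receptors are G protein-coupled receptors of the sensory neurons in the nose. Each neuron transcribes a single allele of a single receptor gene, and its odour signal passes through the G protein Golf, adenylyl cyclase and a cyclic nucleotide-gated channel. The genes lie in tandem clusters, are mostly coded in a single exon, and fall into class I, whose mouse members share a cluster on chromosome 7, and class II. The family is usually silent in embryonic stem cells, so its guides are often read as guides that cut the genome without removing a protein in use. Expression was not measured in these libraries, so neither the silence of the receptors nor the identity of the cells was checked here against markers.

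The authors' deposited table gives each gene 1 log2 fold change between the populations, called its value below, p-values for positive change (enrichment) and negative change (depletion) with false discovery rates, and the number of guides that moved past a threshold up or down. It holds no value per library, so the depth is unknown and repeat libraries cannot be compared. The numerator is not stated. A positive value was taken to mean more guides in MERVL-positive than in total cells, which is likely but not settled. The study's title ties loss of Ints7 to active MERVL, and Ints7 ranks 157 for positive and 18586 for negative change per the authors' deposited table. Its log2 fold change was only 0.14, with 3 of 6 guides up and 1 down, per the authors' deposited table. The enrichment p of Ints7 was 0.00714 (false discovery rate 0.931) per the authors' deposited table. With the other reading every direction below turns. The guide sequences were not used here.

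Olfactory receptor genes had slightly higher log2 fold changes between MERVL-positive and total cells than genes in general. The median log2 fold change was 0.031 over the 1106 genes, against -0.021 over all 20380 genes, and 589 of the receptor genes, 53.3%, lay above 0, against 48.0% of all genes. The spread among receptor genes was far wider than this shift, with an SD of 0.47 on the log2 scale against 0.48 for all genes. The middle 50% of receptor genes ran between -0.29 and 0.32. The 998 single non-targeting guides, which cut nowhere by design, had a median of 0.019, so by median the receptor genes lay closer to them than to all genes. By mean the non-targeting guides, at -0.040, lay closer to all genes, at -0.053, than to the receptor genes, at 0.0025. The SD of the non-targeting guides was 0.77, far wider than any of these gaps. Whether the receptor genes differ from the other genes beyond the error of the libraries could not be tested, since no value per library was used.

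The difference was not the same across the range of values. At the upper end, 153 receptor genes, 13.8%, had a log2 fold change over 0.5, against 10.4% of all genes. At the lower end, 149 receptor genes, 13.5%, were under -0.5, against 15.4% of all genes, and 27, 2.44%, were under -1, against 3.29%. Both tails of the family therefore sat slightly higher than those of all genes. The mean of the receptor genes was 0.0025, against -0.053 for all genes. The extremes were Olfr544 at 1.71 and Olfr76 at -2.24 per the authors' deposited table.

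No olfactory receptor gene passed a false discovery rate of 0.05 in either direction per the authors' deposited table. Over all genes this rate was passed by 0 genes for enrichment (0%) and by 1 gene for depletion (0.00491%). The lowest false discovery rate among the receptor genes was 0.827 for enrichment and 0.462 for depletion per the authors' deposited table. At an unadjusted p under 0.05, 67 receptor genes, 6.06%, counted as enriched, beside 5.02% of all genes. For depletion 27 did, 2.44%, beside 5.07% of all genes. At an unadjusted p under 0.01 there were 13 receptor genes for enrichment, 1.18%, beside 1.07% of all genes. For depletion there were 3, which is 0.271%, beside 1.12% of all genes. The count for enrichment was thus near the background at both thresholds, and that for depletion was below it at both. Among the non-targeting guides a depletion p under 0.05 was held by 5.61% and one under 0.01 by 1.80%, so in this measure they lay nearer to all genes than to the receptor genes, although these entries have 1 guide each.

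The shortage of low depletion p-values extended beyond 0.05, where it was smaller. Depletion p-values under 0.1, which include those under 0.05, were held by 73 receptor genes, 6.60%, against 10.2% of all genes. Those of 0.1 to 0.2 were held by 9.04%, against 9.86%, and those of 0.2 to 0.3 by 8.50%, against 10.1%. Depletion p-values from 0.8 to 0.9 were held by 13.2% of receptor genes, against 10.4% of all genes, and those of 0.9 and above by 9.31%, against 10.1%. For enrichment the largest excesses lay above 0.1, with 12.1% of receptor genes between 0.1 and 0.2, against 9.55% of all genes, and 11.8% between 0.2 and 0.3, against 10.1%. By log2 fold change the shortage was smaller than by p. The lowest 5% of all genes, those under -0.87, held 49 receptor genes, which is 4.43% of the family. The highest 5%, over 0.66, held 69, or 6.24%.

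Counts of single guides leaned the same way. Of the 6394 guides, 2536 were up and 2299 were down, which is 39.7% and 36.0%, against 37.4% and 38.0% over all genes. Among non-targeting guides 36.8% were up and 36.4% down. The threshold for up or down is thus loose, and passing it shows no change by itself. Of the receptor genes with 6 guides, 112 had 4 or more guides down, which is 12.6%, against 15.5% of all genes with 6 guides. For 4 or more guides up the shares were nearer, at 15.8% and 14.5%. All 6 guides were down in 1 receptor gene, against 59 of the 16270 genes with 6 guides, and all 6 were up in 3, against 35. Receptor genes with no guide up made up 3.82%, against 5.91% of all genes with 6 guides.

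Olfr38 was the receptor gene with 6 of 6 guides down. Its position is chromosome 6, 42762054 to 42763007 in mm10, and it had a log2 fold change of -1.96, or a ratio of 0.257 between MERVL-positive and total cells, per the authors' deposited table. Its depletion p was 0.00333 (false discovery rate 0.846) per the authors' deposited table. Olfr107, on chromosome 17, had all 5 guides down and a value of -0.95, with a depletion p of 0.0209, per the authors' deposited table. Beyond these, no receptor gene with 4 or more guides had all of them down.

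Every guide was up in 5 receptor genes with 5 or 6 guides. Olfr494, a class II gene on chromosome 7 from 108367492 to 108368436 in mm10, had 6 of 6 guides up and a value of 1.02 per the authors' deposited table. Its p for enrichment was 0.000627 (false discovery rate 0.827), rank 10 of 22510 entries, per the authors' deposited table. Olfr1248, on chromosome 2 from 89617168 to 89618245, had 6 of 6 guides up, a value of 1.15 and an enrichment p of 0.00686 per the authors' deposited table. Olfr616, within the class I cluster, reached 6 of 6 guides up with a smaller value of 0.43 and a p of 0.0127 per the authors' deposited table. The others were Olfr355 at 0.67 and Olfr1037 at 0.91, both with 5 of 5 guides up and with p-values of 0.024 and 0.0278, per the authors' deposited table.

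The lowest enrichment p-values did not always go with many guides or a high log2 fold change. Olfr1097, on chromosome 2 from 86890226 to 86892163, had the lowest enrichment p of the family, 0.000393, at rank 4, although its value was -0.32 with 2 guides up and 3 down per the authors' deposited table. Olfr965, next at a p of 0.000524, had a value of 0.97 and 5 of 6 guides up per the authors' deposited table. Olfr898 followed after Olfr494 with a p of 0.00064, a value of 0.35 and 3 of 6 guides up per the authors' deposited table. Olfr1214 and Olfr31 also had 3 of 6 guides up, with values of 0.78 and 0.56 and p-values of 0.000879 and 0.00167, per the authors' deposited table. If the deposited score is the robust rank aggregation of MAGeCK, which the headers do not state, its p-value ranks a gene by its best few guides.

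Larger log2 fold changes came with the next genes. Olfr213, on chromosome 6 from 116540455 to 116541438, had a value of 1.35 with 4 of 5 guides up and none down, and an enrichment p of 0.00398, per the authors' deposited table. Olfr120, on chromosome 17 from 37725999 to 37726991, had a value of 1.24 with 5 of 6 guides up and none down, and a p of 0.00307, per the authors' deposited table. Olfr399, Olfr1196 and Olfr777 had values of 0.94, 0.82 and 0.99 per the authors' deposited table, with 4 of 5, 5 of 6 and 4 of 6 guides up. The 15 genes with the lowest p also included Olfr544, described below with the studied receptors, Olfr675 at 0.26, with 3 of 6 guides up, and Olfr512 at 0.078, with 2 of 6, per the authors' deposited table.

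Over all 67 receptor genes with an enrichment p under 0.05 per the authors' deposited table, values ran between -0.55 and 1.71 with a median of 0.58. More than 50% of the guides were up in 37 of them, and in 30 they were not. In 12 the log2 fold change was below 0, Olfr1097 among them. Over all genes it was below 0 in 124 of the 1023 with such a p. The 67 genes lay on 11 chromosomes. Of them, 31 were also among the 69 receptor genes in the highest 5% of all genes by log2 fold change. That is 46.3% of the first set and 44.9% of the second. The overlap and the guide majority were not counted over all genes, so they are not read as traits of the family.

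On the depletion side, Olfr645 had the lowest p of the family, 8.2e-05, at rank 4 and a false discovery rate of 0.462, per the authors' deposited table. It lies in the class I cluster on chromosome 7 from 104084131 to 104085078 and had a value of -1.51, with 3 of 5 guides down and 1 up, per the authors' deposited table. Olfr1113, on chromosome 2 from 87212894 to 87213874, had a value of -1.47 with 5 of 6 guides down and a p of 0.00225 per the authors' deposited table. With Olfr38 these were the 3 receptor genes with a depletion p under 0.01. Olfr76, on chromosome 19 from 12119721 to 12120674, had the lowest value of the family, -2.24, with 4 of 5 guides down, none up and a p of 0.0128, per the authors' deposited table.

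Olfr552 and Olfr1418 had values of -1.30 and -1.13, each with 5 of 6 guides down, per the authors' deposited table. Olfr312 had the same guide count at -0.90, and Olfr1491 and Olfr1511 had 4 and 3 of 6 guides down at -0.87 and -0.95, per the authors' deposited table. The p-values of these 5 genes were between 0.016 and 0.0203 per the authors' deposited table. Among the 27 receptor genes with a depletion p under 0.05 per the authors' deposited table, the guides were down in a majority for 22, and the log2 fold change was above 0 in 1, Olfr1366 at 0.054, chosen after its value was seen. Over all genes, 90 of the 1034 with such a p had a log2 fold change above 0. The median of the 27 receptor genes was -0.90. Of these genes, 16 were also among the 49 receptor genes in the lowest 5% of all genes, which is 59.3% of the first set and 32.7% of the second. No receptor gene had both p-values under 0.05. This count, the overlap and the guide majority were not taken over all genes, so they are not read as traits of the family.

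Olfr numbers follow position in the genome in part, so a block of numbers holds runs of neighbouring genes from 2 to 15 chromosomes. Blocks were cut at the numbers 300, 600, 900 and 1200 and are called here by their lowest number. Members below 300 were spread over 15 chromosomes, with 22.5% on chromosome 17 and 16.9% on chromosome 16. Members of the block from 300 had 49.8% of their genes on chromosome 7, and those of the block from 600 had 41.1% there and 24.1% on chromosome 10. Members of the block from 900 lay on chromosomes 2 and 9 alone, with 69.9% on chromosome 2. Those of 1200 and above lay on 12 chromosomes, with 41.5% on chromosome 2 and 24.1% on chromosome 19.

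The 5 blocks had similar medians. The median log2 fold change was 0.0073 for the 213 genes below 300, 0.040 for the 219 from 300 on and 0.050 for the 224 from 600 on. It was 0.028 for the 209 genes from 900 on and 0.029 for the 241 of 1200 and above. All of these lay above the -0.021 of all genes, and the SD within a block, 0.43 to 0.53, was far wider than the differences between them. Taken as means, the block below 300 came to -0.030 and the block from 900 to -0.023, against a mean of -0.053 over all genes. The block below 300 also had the widest spread, and the block from 600 the narrowest.

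The low depletion count was shared by every block. A depletion p under 0.05 was held by 3.29% of genes below 300, 3.20% from 300, 0.893% from 600, 1.91% from 900 and 2.90% from 1200, beside the 5.07% of all genes. For enrichment the shares lay on both sides of the 5.02% of all genes, at 4.23%, 7.31%, 5.36%, 8.13% and 5.39% in the same order of blocks. These shares rest on 2 to 17 genes each. The share of guides up was between 39.0% and 40.9% in the blocks, and that of guides down between 35.4% and 36.9%. Every block thus had more guides up and fewer down than the 37.4% and 38.0% of all genes.

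The genes with the highest and lowest values in each block showed how far single members departed from these medians. Below 300 they were Olfr213 and Olfr76, and in the block from 300 Olfr544 at 1.71 and the entry Olfr367-ps at -1.49 per the authors' deposited table. In the block from 600 they were Olfr741 at 1.08, with 4 of 6 guides up, and Olfr645 per the authors' deposited table. The block from 900 ran between Olfr904 at 1.05, a gene with 4 guides of which 3 were up, and Olfr1113 per the authors' deposited table. In the block from 1200 the ends were Olfr1248 at 1.15 and Olfr1299 at -1.28, the second with 4 of 6 guides down and 2 up, per the authors' deposited table. The enrichment p was 0.0247 for Olfr741 and 0.0701 for Olfr904, and the depletion p was 0.107 for Olfr367-ps and 0.119 for Olfr1299 per the authors' deposited table.

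Genes with fewer guides had wider values. Receptor genes with 6 guides had a median of 0.025 and an SD of 0.44, and those with 5 guides a median of 0.067 and an SD of 0.55. All genes with 6 and 5 guides had medians of -0.022 and -0.0065 and SDs of 0.46 and 0.52, so receptor genes had the higher median at both numbers of guides. The 16 receptor genes with 4 guides had a median of 0.10 and an SD of 0.57. None of them had a p under 0.05 in either direction. Of all 446 genes with 4 guides, 4.93% had such a p for enrichment and 5.38% for depletion. The 16 genes are too few to set against these shares. A depletion p under 0.05 was held by 23 receptor genes with 6 guides, 2.58%, against 5.17% of all genes with 6 guides. With 5 guides it was held by 4, 2.03%, against 4.54%. For enrichment the receptor genes had 6.18% against 5.04% with 6 guides, and 6.09% against 4.99% with 5.

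By position, 1101 of the 1106 entries could be placed through the RefSeq table, 1093 by symbol and 8 by synonym. They lay on 17 chromosomes and fell into 50 clusters, in which neighbouring members were no more than 1 Mb apart. Of these clusters, 21 held 10 or more members, 1005 in all. Their medians ran between -0.14 and 0.15, and 12 of the 21 were above 0. The SD within a cluster was between 0.25 and 0.59, with a median of 0.47, against an SD of 0.077 between the cluster medians. Members of a cluster thus varied almost as much as the whole family.

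The cluster with the most genes, on chromosome 2 from 85330967 to 90401674, held 223 genes with a median of -0.0034. It had 17 genes with an enrichment p and 6 with a depletion p under 0.05. These are 7.62% and 2.69%, beside 5.02% and 5.07% of all genes. The class I cluster on chromosome 7, from 102476773 to 105369317, held 124 genes with a median of 0.10, and 10 and 4 genes under 0.05, or 8.06% and 3.23%. It holds both Olfr544 and Olfr645, the ends of the family by highest value and lowest depletion p. A cluster of 97 genes on chromosome 9, from 37711348 to 40188094, had a median of 0.076 and the counts 10 and 1, or 10.3% and 1.03%. Next in size, 66 genes on chromosome 7 had shares of 7.58% and 1.52%. Then came 61 genes on chromosome 19, at 1.64% and 4.92%, and 56 on chromosome 10, at 3.57% and 1.79%.

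Among the 21 clusters of 10 or more members, the highest median, 0.15, came from 21 genes on chromosome 6 between 41771353 and 43236575, which also had the widest spread of these clusters, an SD of 0.59, and which include Olfr38. The lowest, -0.14, came from 36 genes on chromosome 14 between 49894258 and 52495695. In 17 of these 21 clusters the share of genes with a depletion p under 0.05 was below that of all genes, and 8 of them had no such gene. For enrichment 9 clusters were above the share of all genes, and 5 had no such gene. In the smallest of these clusters a single gene puts the share above that of all genes, so these tallies depend in part on cluster size.

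Neighbouring genes showed almost no correlation. Across 1051 pairs of adjacent members within a cluster, the log2 fold changes had a Pearson correlation of 0.021 and a Spearman correlation of 0.032, given as a description of these genes, which share libraries and in part sequence. Adjacent members had opposite signs in 530 pairs, 50.4%, and a median absolute difference of 0.44.

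Receptor genes were also set against the other genes of their own chromosome. On 9 of the 12 chromosomes with 20 or more members, the receptor genes had the higher median. On chromosome 7 the median was 0.036 over 236 receptor genes against -0.057 over 1635 other genes, and on chromosome 11 it was 0.031 over 82 against -0.060 over 1477. On chromosome 9 the gap was small, 0.072 over 132 against 0.057 over 1036. On chromosome 2, which holds 287 members, it was -0.00016 against -0.015. On chromosome 14 the order was reversed, with -0.045 over 39 against 0.027 over 666. The share with a depletion p under 0.05 was below that of the other genes on 10 of the 12 chromosomes, for instance 2.54% against 6.42% on chromosome 7 and 0.758% against 3.67% on chromosome 9.

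The 12 receptors listed here because they are well studied had no common direction. Their median was -0.032, 6 of them lay above 0, and 1, which is 8.33%, had an enrichment p under 0.05, beside 5.02% of all genes. That was Olfr544, a receptor for azelaic acid that has also been described in fat tissue, on chromosome 7 from 102484114 to 102488307. Its value of 1.71, a ratio of 3.28, came with 4 of 5 guides up and 1 down, an enrichment p of 0.0112 (false discovery rate 0.959) per the authors' deposited table. Olfr78, which is expressed in the carotid body and kidney, had a value of 0.75 with 3 of 5 guides up and a p of 0.243 per the authors' deposited table. Olfr558, the mouse counterpart of human OR51E1, had a value of 0.19 per the authors' deposited table.

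Of the receptors used to map axons in the olfactory bulb, Olfr17, also called P2, had a value of -0.23, Olfr151, or M71, one of -0.36 and Olfr160, or M72, one of -0.23 per the authors' deposited table. Olfr1507, or MOR28, the neighbour of the H enhancer, had a value of 0.44 with 4 of 6 guides up per the authors' deposited table. Olfr16, or MOR23, which is also present in sperm, had the lowest value of the 12, -0.96, with 3 of 6 guides down and 2 up and a depletion p of 0.193, per the authors' deposited table. Olfr1019, which responds to a fox odour, had a value of -0.53 with 3 guides down and none up per the authors' deposited table. Olfr2 (I7), which binds octanal, Olfr73, which binds eugenol, and Olfr1509, which detects a thiol in male urine, had values of 0.22, 0.067 and -0.13 per the authors' deposited table.

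The genes through which the receptors act had a median near 0. Of 16 genes of olfactory signalling and receptor trafficking, 8 lay above 0 and the median was 0.0067. An enrichment p under 0.05 was held by 1 gene, 6.25%, beside 5.02% of all genes, and a depletion p under 0.05 by 2, 12.5%, beside 5.07% of all genes. The most depleted by value was Omp, the olfactory marker protein of mature sensory neurons, on chromosome 7 from 98143359 to 98145447, at -1.56 with 4 of 4 guides down per the authors' deposited table. Its depletion p was 0.00217 (false discovery rate 0.81) per the authors' deposited table. Gnb1, a G protein beta subunit used in most tissues, had a value of -0.73 and a p of 0.00561, and Ric8b, a chaperone of Golf, a value of 0.42 and an enrichment p of 0.042, per the authors' deposited table.

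Of 16 genes of receptor choice and neuron identity, 8 lay above 0, with a median of 0.0054, and 1 and 2 had an enrichment and a depletion p under 0.05, again 6.25% and 12.5%, beside 5.02% and 5.07% of all genes. Lhx2, a homeodomain factor bound at receptor enhancers, had a value of -0.97 with 5 of 6 guides down and a depletion p of 0.0273 per the authors' deposited table. Ebf1, whose family binds beside Lhx2, had a value of 0.84 with 5 of 6 guides up and an enrichment p of 0.0421 per the authors' deposited table. Neurog1, a factor of neuron precursors, had a depletion p of 0.00297 although its value was -0.066 with 3 guides up and 3 down per the authors' deposited table. None of these genes passed a false discovery rate of 0.05 per the authors' deposited table.

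The vomeronasal receptors, which detect pheromones and are likewise clustered and usually silent outside their sensory neurons, had close medians. It was 0.034 for 185 type 1 and 0.030 for 118 type 2 receptor genes, beside 0.031 for the olfactory receptors. A depletion p under 0.05 was held by 6 type 1 and 3 type 2 genes, 3.24% and 2.54%, and an enrichment p under 0.05 by 6 and 5, 3.24% and 4.24%, beside 5.07% and 5.02% of all genes. Their guides were up in 37.5% and 37.7% and down in 37.1% and 37.4%, where those of the olfactory receptors were up in 39.7% and down in 36.0%. Whether the families differ was not tested.

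Receptor genes within a cluster can be close copies, so a guide may cut more than 1 of them, and values of neighbouring members need not be independent. The part of shared guide targets in these values was not tested.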

How the data were processed

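Guide abundance was measured in 2 MERVL-positive and 2 total libraries, grouped by their titles. The values came from 1 table of the authors, with the columns of MAGeCK's summary by gene, per the file headers. The submitters' processing notes name MAGeCK and mm10. The sources used here do not give the version, settings, normalization or numerator. Per the file headers, the authors deposited for each entry and direction a score, p-value, false discovery rate, rank and number of guides past a threshold. They also deposited a log2 fold change, identical in both directions. All these were taken as deposited, and no count model could be fitted. Depth per library is unknown, and the p-values may rest on technical spread.

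Members were matched by symbol, then synonym, to RefSeq genes of GRCm38.p6, the assembly of mm10. Counts, medians and shares were computed with Python 3.11.15, pandas 2.3.3 and scipy 1.17.1, and tested on simulated data. No test was run over genes, since genes are not replicates. The members and gene lists were chosen with earlier results of these data known. Named genes were the 15 lowest enrichment and 10 lowest depletion p-values, the ends of each block, genes with all of 4 or more guides one way, 12 studied receptors, and list genes with a p under 0.05.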

Additional observations from a re-analysis of the deposited data

How the results depend on the processing

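Of 34 alternative values, 24 kept their direction and lay within 1.5 times the count, or within the 95% binomial interval of the median or share. These include all those without the 18 entries named or annotated as pseudogenes. Of the others, 6 moved beyond these limits and 4 changed sign. The sign changed for the means of the blocks below 300 and from 900 and of receptor genes with 6 guides. It also changed for the median of the block below 300 with genes of 6 guides. As a mean, the family's central value was 0.0025, and block means were -0.030 for numbers below 300 and -0.023 for the block from 900. The mean over all genes was -0.053. For receptor genes with 6 guides the mean was -0.0058, against -0.053 over all genes with 6 guides. With genes of 6 guides, the median of the block below 300 was -0.014, against -0.022 over all genes with 6 guides. At p under 0.01 enrichment counted 13 receptor genes, 1.18%, beside 1.07% of all genes. Depletion counted 3, which is 0.271%, beside 1.12% of all genes. At a false discovery rate of 0.05 both directions counted 0 receptor genes, beside 0 genes for enrichment and 1 for depletion over all genes. The lowest 5% of all genes by log2 fold change held 49 receptor genes, 4.43% of the family. A depletion p under 0.05 was held by 27, which is 2.44%, beside 5.07% of all genes. The cause of the difference between these counts was not tested. No paired analysis was possible because the table holds no value per library, and for the same reason no library could be left out. The alternative without near-identical proteins was not run, as protein sequences were not used here. The unknown depth limits all of these values.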

Other observations

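Smaller chemosensory families had varied values. Most trace amine-associated receptor genes encode a second class of receptors in olfactory neurons. The 15 genes of this family had a median log2 fold change of -0.38, with 4 above 0. At a p under 0.05, 1 of these genes, 6.67%, passed for enrichment, beside 5.02% of all genes, and 2, 13.3%, for depletion, beside 5.07%. The 35 bitter taste receptor genes had a median of 0.072, with 2 and 1 such genes, 5.71% and 2.86%. The 6 formyl peptide receptor genes had a median of 0.20 and the 3 sweet and umami taste receptor genes one of -0.017. The 13 olfactory receptor entries with a -ps name, which denotes a pseudogene although RefSeq gives 10 of them as protein-coding, had a median of 0.029 and a mean of -0.25, and 2 of them, 15.4%, had a depletion p under 0.05.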
